A study of Homo sapiens with 6 samples.

Results

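Transcripts of 32 genes of cholesterol and fatty acid synthesis were followed in the human uveal melanoma line Mum-2b, with and without depletion of NELFCD. The 32 were chosen by name from the 58735 genes of the deposited count table, and all 32 were among the 14844 that passed the low-count filter. The study compared 3 control libraries, labelled wild type, with 3 libraries labelled NELFCD knockdown, whose titles carry 1 short hairpin RNA (shRNA) number. Effects of the target and of off-targets of that hairpin cannot be told apart with 1 hairpin, and the labels do not say whether the libraries of a group came from separate cultures, so p-values measure the spread between these libraries only.

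Cells build cholesterol from acetyl-CoA by way of mevalonate, isoprenoids, squalene and lanosterol, and build fatty acids from the same acetyl-CoA by way of malonyl-CoA. Most genes of both routes are targets of the SREBP transcription factors, encoded by SREBF1 and SREBF2, which are made as membrane precursors in the endoplasmic reticulum (ER). The escort protein SCAP carries the precursors to the Golgi for cleavage when sterols are scarce, and the INSIG1 and INSIG2 proteins hold SCAP in the ER when sterols are plentiful. INSIG1 is itself an SREBP target.

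The NELFCD protein belongs to the NELF complex, which holds RNA polymerase II in a paused state near the start of genes. Controls 1 to 3 had 65.5, 88.3 and 83.5 CPM of it (counts scaled to a common library size), and knockdowns 1 to 3 had 20.7, 37.4 and 40.3 CPM. Library totals were 14306733 to 16656630 counts, and the 32 genes took 0.454% to 0.612% of them. Replicate 1 of both groups stood apart: within a group, chi-square divided by its degrees of freedom was 101 to 115 against replicates 2 and 3, and 2.06 to 2.21 between those replicates, where counting noise alone gives a value near unity. Melanocyte markers were low, with TYR and S100B at 0 in 5 libraries each, 5 of 8 markers under 1 CPM in every library, and a summed level of 7.50 to 10.8 CPM in controls and 7.61 to 18.3 CPM in knockdowns. Leukocyte and adipocyte markers were each under 1 CPM in every library, while the epithelial keratins KRT8 (452 to 901 CPM) and KRT18 (234 to 561 CPM) were abundant and EPCAM and CDH1 were under 1 CPM. The 4 endothelial markers summed to 2.62 to 7.06 CPM in controls and 1.51 to 3.72 CPM in knockdowns. The part of these levels in the results was not tested.

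In the primary edgeR fit, without a replicate term, no member was called. With the replicate number as a block, an alternative fit, the sterol sensor genes INSIG1 and INSIG2 fell in the knockdown. With them fell the enzyme genes SQLE, IDI1 and SCD, and no member rose. The calls with the block come from edgeR's quasi-likelihood test, at a Benjamini-Hochberg adjusted p under 0.05 over all genes tested. The data show pairing for replicate 1 only, and pairs 2 and 3 follow the replicate numbers in the labels. Below, "fell" or "rose" refers to the fit with the block unless another is named. In it 5 of 32 members fell (15.6%) and 0 rose, where 8.01% of all genes fell, 5.48% rose and 13.5% were called in either direction. The share called in either direction was therefore near that of all genes. At an unadjusted p under 0.05 the counts were 5 up and 8 down of 32, against 2126 up and 2397 down of all 14844 genes tested. With the block, DESeq2 had 3 members falling (6.80% of all genes) and 0 rising (3.33%), and limma-voom had 5 (8.46%) and 0 (5.75%). Without the block, the primary design, edgeR called 0 members and 0 of 14844 genes. At an unadjusted p under 0.05 that fit had 1 member, against 954 of all genes tested. DESeq2 without the block had 1 member falling, INSIG1 (0.849% of all genes), and 0 rising (0.382%), and limma-voom called 0. In edgeR with the block, the median log2 fold change of the members was -0.03, against 0.0001 over all genes tested, with 15 members above and 17 below 0.

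**Figure D1:**
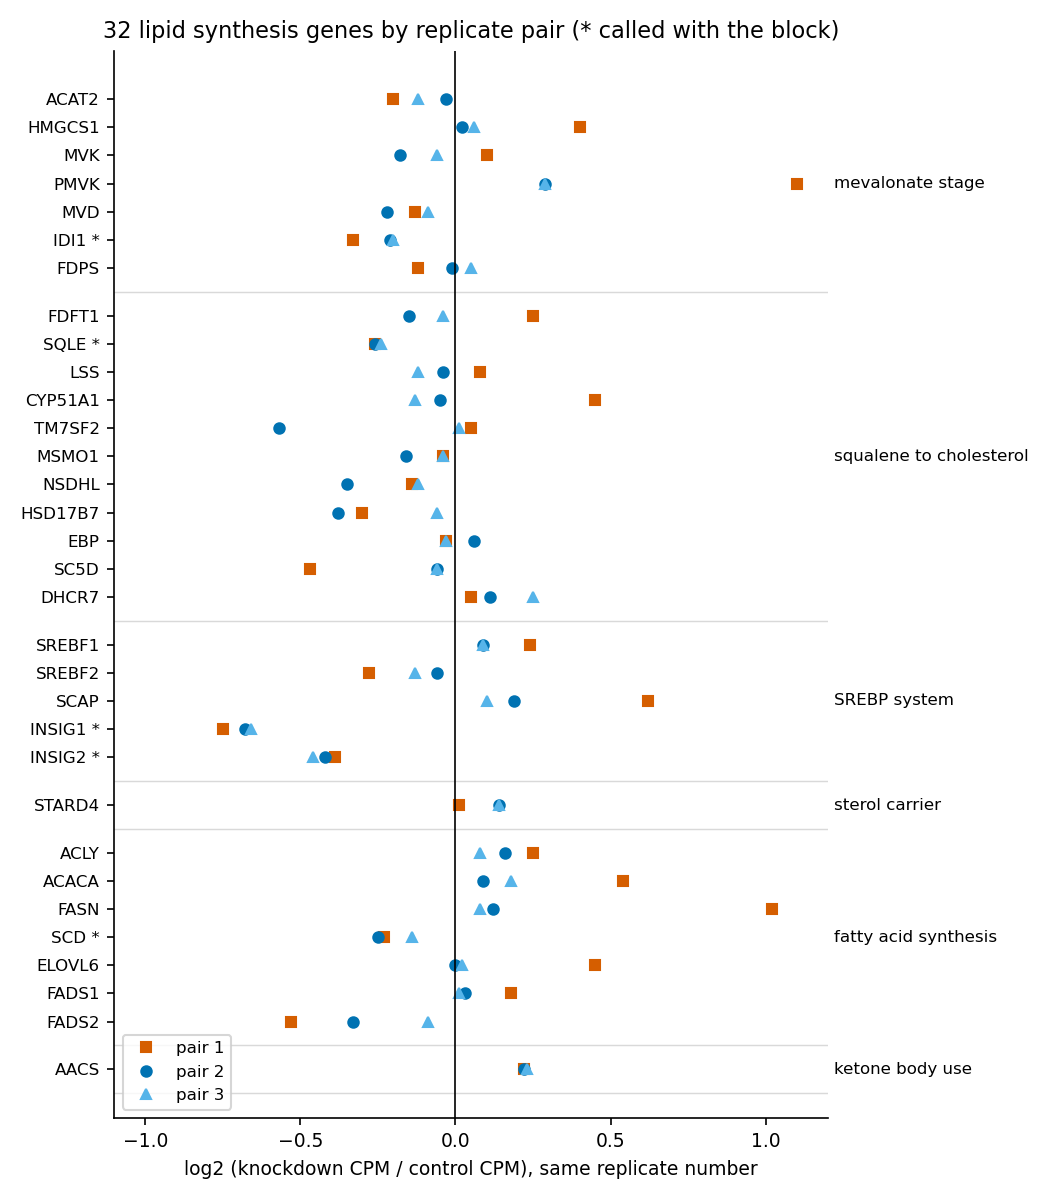
Log2 ratio of knockdown to control CPM for each of the 32 genes (rows, grouped by role), taken between libraries of the same replicate number (1 square, 1 circle and 1 triangle for pairs 1, 2 and 3). Genes with an asterisk fell in edgeR's fit with the replicate block. INSIG1 lies at -0.75, -0.68 and -0.66, while FASN lies at 1.02 in pair 1 and at 0.12 and 0.08 in pairs 2 and 3.

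INSIG1 (ENSG00000186480, chromosome 7, 155297776 to 155310235, plus strand, hg38), the sterol-regulated anchor of SCAP, had the largest change of the 5 genes that fell. Controls 1 to 3 had 60.0, 47.5 and 45.3 CPM, and knockdowns 1 to 3 had 35.8, 29.6 and 28.6 CPM. Each knockdown library lay below every control library, and the ratios within pairs, 0.596, 0.623 and 0.631, were close to each other. The mean went from 50.9 ± 7.96 to 31.3 ± 3.89 CPM (SD, n = 3), and the log2 fold change was -0.70 ± 0.0742 (SE), or 61.6% of control (edgeR with the block, adjusted p = 0.0012). Without the block its edgeR adjusted p was 0.58. It was called in all 14 of the fits that kept the replicate number as a term or left replicate 1 out (adjusted p 7.6e-15 to 0.018) and in 1 of 13 others, DESeq2 without a block (adjusted p = 0.04).

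INSIG2 (ENSG00000125629, chromosome 2, 118088452 to 118110997, plus strand), the paralog that acts alongside INSIG1, was at 41.3, 29.1 and 31.0 CPM in controls and 31.6, 21.8 and 22.5 CPM in knockdowns. Knockdown replicate 1 lay above control replicates 2 and 3, so the groups overlapped, although each knockdown library lay below its own control, at 0.764, 0.750 and 0.727 of it. The log2 fold change was -0.42 ± 0.0827 (SE), or 74.7% of control (edgeR with the block, adjusted p = 0.014, and 0.90 without it). It was called in 13 of the same 14 fits, the exception being the blocked fit without pair 2 (adjusted p = 0.069).

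SCAP, the escort, did not pass (log2 fold change 0.30, edgeR adjusted p = 0.077 with the block and 0.95 without it). It measured 69.1, 97.2 and 98.6 CPM in controls and 107, 111 and 105 CPM in knockdowns. All knockdown libraries were above all control libraries, and the distance was largest in pair 1, where control replicate 1 was the lowest of the 6. SCAP was called as higher with replicates 2 and 3 alone (log2 fold change 0.14, edgeR adjusted p = 0.032).

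Per unit of gene length, on the authors' FPKM scale (fragments scaled by gene length and depth), the summed INSIG1 and INSIG2 level exceeded that of SCAP 2.51, 1.35 and 1.32 times in controls 1 to 3. In knockdowns 1 to 3 the ratio was 1.07, 0.788 and 0.827. The lowest control ratio lay above the highest knockdown ratio. This ratio and the other FPKM ratios below were chosen after the values were seen and are descriptions, with no test. INSIG1 exceeded INSIG2 on that scale in every library, by 1.57 to 1.77 times in controls and 1.23 to 1.47 times in knockdowns.

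SREBF1, which encodes the SREBP mostly tied to fatty acid genes, and SREBF2, which encodes the one mostly tied to cholesterol genes, did not pass. SREBF1 was at 175, 93.9 and 96.9 CPM in controls and 206, 100 and 103 CPM in knockdowns (log2 fold change 0.14, edgeR adjusted p = 0.17 with the block). SREBF2 was at 412, 232 and 244 CPM in controls and 340, 222 and 223 CPM in knockdowns (-0.16, adjusted p = 0.13). Both were higher in replicate 1 of either group than in any library of replicates 2 and 3, and that spread exceeded any distance between the groups. The SREBF2 to SREBF1 ratio on the FPKM scale was 2.50 to 2.67 in controls and 1.75, 2.35 and 2.30 in knockdown replicates 1 to 3.

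**Figure D2:**
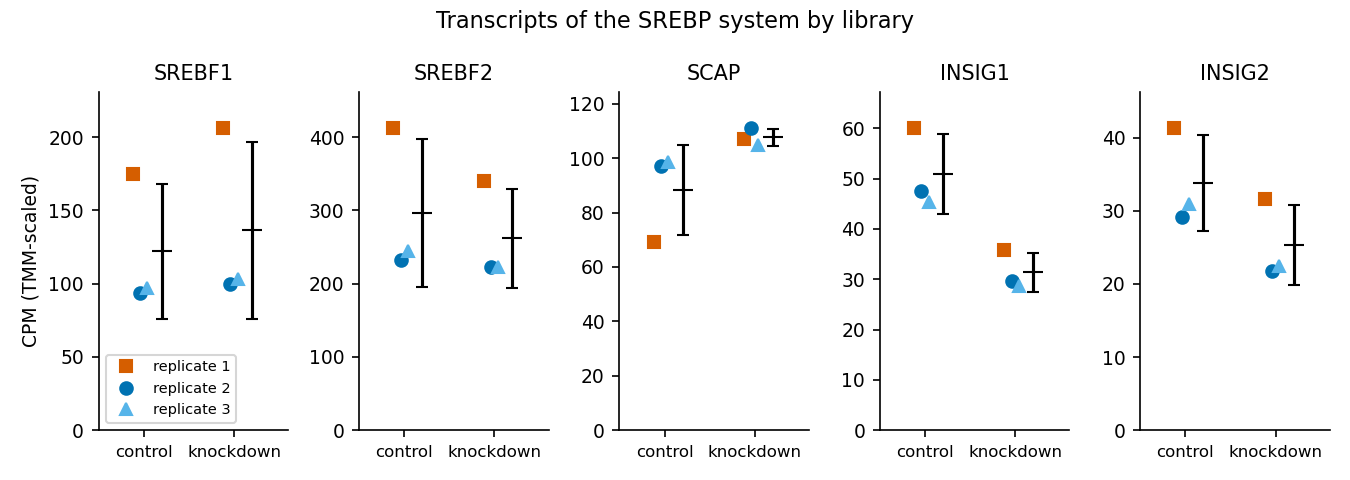
Transcript level in CPM (axis from 0) of SREBF1, SREBF2, SCAP, INSIG1 and INSIG2 in each library, with the mean and SD of 3 libraries beside the points. The 3 INSIG1 knockdown libraries (28.6 to 35.8 CPM) sit below the 3 controls (45.3 to 60.0 CPM), and replicate 1 (squares) is the highest of its group for SREBF1 and SREBF2.

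The promoters of INSIG1, INSIG2 and SCD are shown because these 3 genes fell while 27 of the 32 members did not pass. SQLE, which also fell, is not shown because no RefSeq window was found for it. Each window runs from 250 bases before to 50 bases after the RefSeq start, 5′ to 3′ on the gene's strand (GRCh38.p14), and capitals mark letters matched by the motifs given below them. INSIG1 lies at chr7:155297628-155297927, INSIG2 at chr2:118088221-118088520 and SCD at chr10:100346983-100347282, all on the plus strand.
INSIG1: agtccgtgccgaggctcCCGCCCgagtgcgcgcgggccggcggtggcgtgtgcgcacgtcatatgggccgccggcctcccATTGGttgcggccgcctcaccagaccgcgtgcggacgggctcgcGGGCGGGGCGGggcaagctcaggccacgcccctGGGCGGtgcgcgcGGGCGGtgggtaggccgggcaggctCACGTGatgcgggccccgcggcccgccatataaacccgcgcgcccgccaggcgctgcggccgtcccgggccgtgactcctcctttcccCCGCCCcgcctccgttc
INSIG2: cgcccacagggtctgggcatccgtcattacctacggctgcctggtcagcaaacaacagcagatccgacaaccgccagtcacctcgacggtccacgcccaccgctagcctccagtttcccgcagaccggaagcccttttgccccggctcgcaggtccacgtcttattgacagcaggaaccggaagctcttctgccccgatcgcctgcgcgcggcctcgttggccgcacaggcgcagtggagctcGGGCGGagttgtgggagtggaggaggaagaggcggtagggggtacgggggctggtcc
SCD: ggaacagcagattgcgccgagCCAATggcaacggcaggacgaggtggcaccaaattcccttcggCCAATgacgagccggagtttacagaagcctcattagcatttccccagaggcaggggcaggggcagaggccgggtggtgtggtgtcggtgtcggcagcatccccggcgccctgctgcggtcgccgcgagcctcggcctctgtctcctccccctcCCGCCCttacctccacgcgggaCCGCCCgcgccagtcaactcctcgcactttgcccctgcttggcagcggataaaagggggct

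The 4 motifs below were searched on both strands: an SREBP-type sterol element (TCACNCCAC), the CCAAT box bound by NF-Y (CCAAT), the GC box bound by Sp factors (GGGCGG) and the palindromic E-box (CACGTG). Matches of different motifs did not overlap in the windows of the 3 genes shown, and 2 of the INSIG1 GC boxes overlapped each other. The INSIG1 window held 6 GC boxes, 1 CCAAT box and 1 palindromic E-box, SCD held 2 GC boxes and 2 CCAAT boxes, and INSIG2 held 1 GC box. A RefSeq window was found for 28 of the 32 members. The GC box was in 26 of these 28 (92.9%), against 69.9% of 10125 windows of tested genes and 44.6% of all 27305 windows. CCAAT was in 17 of 28 (60.7%), against 36.6% and 35.7%. The E-box was in 4 of 28 (14.3%), against 10.1% and 7.43%. The sterol element as spelled was in 1 of 28 (3.57%), SREBF2, against 1.09% and 1.15%. These matches are a description of the letters in a window. The window of IDI1 is not shown because its RefSeq start lay 7534 bases from the start of the deposited gene record.

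Of the 7 genes of the mevalonate stage 1 fell (14.3%) and 0 rose, against 8.01% and 5.48% of all genes tested. At an unadjusted p under 0.05 there were 1 up and 1 down, against 2126 and 2397 of all 14844 genes. The gene that fell was IDI1 (ENSG00000067064, chromosome 10, 1039152 to 1049170, minus strand), which encodes the isomerase that makes the allylic isoprenoid precursor. IDI1 was at 99.9, 116 and 112 CPM in controls and 79.2, 100 and 98.1 CPM in knockdowns. Knockdown replicate 2 was level with control replicate 1, so the groups overlapped by a small margin, while within pairs the knockdown was lower in 3 of 3. The log2 fold change was -0.25 ± 0.0638 (SE; edgeR with the block, adjusted p = 0.037, and 0.95 without it). It was called in 8 of 14 fits with the replicate number, and 14.8% of its exon bases are shared with the antisense gene IDI2-AS1.

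PMVK, phosphomevalonate kinase, had the highest fitted value of the stage without passing (log2 fold change 0.51 ± 0.156 SE, edgeR with the block, adjusted p = 0.062). It was called as higher in 5 of 14 fits with the replicate number. Its levels were 7.26, 17.4 and 19.6 CPM in controls and 15.6, 21.3 and 24.0 CPM in knockdowns, so that control replicate 1 was lowest by a wide margin. HMGCS1, the synthase that makes HMG-CoA, was at 128, 113 and 112 CPM in controls and 169, 115 and 117 CPM in knockdowns. Only knockdown replicate 1 stood away from the rest. The other 4 genes had log2 fold changes between -0.15 and -0.03: the thiolase gene ACAT2, the kinase gene MVK, the decarboxylase gene MVD and the farnesyl diphosphate synthase gene FDPS. ACAT2 shares 52.3% of its exon bases with genes on the opposite strand, and the use of strand in counting is not given in the sources used here.

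Of the 11 genes from squalene to cholesterol 1 fell (9.09%) and 0 rose, against 8.01% and 5.48% of all genes tested. At an unadjusted p under 0.05 there were 0 up and 2 down, against 2126 and 2397 of all 14844 genes. SQLE (ENSG00000104549, chromosome 8, 124998497 to 125022283, plus strand), squalene epoxidase and a rate-limiting enzyme of the route, was at 204, 232 and 232 CPM in controls and 171, 193 and 197 CPM in knockdowns. No knockdown library reached a control library, and the 3 ratios within pairs were 0.837, 0.835 and 0.846. The log2 fold change was -0.25 ± 0.0564 (SE; edgeR with the block, adjusted p = 0.022, and 0.89 without it). SQLE was called in 11 of 14 fits with the replicate number, with a largest adjusted p of 0.18.

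FDFT1, the squalene synthase gene that acts one step before SQLE, did not pass (log2 fold change 0.02, edgeR with the block, adjusted p = 0.87). Its levels were 245, 277 and 263 CPM in controls and 291, 251 and 256 CPM in knockdowns, higher than control in pair 1 and lower in pairs 2 and 3. HSD17B7, a sterol ketoreductase gene, was at 15.8, 17.6 and 15.9 CPM in controls and 12.8, 13.5 and 15.2 CPM in knockdowns. These groups did not overlap, but the gene did not pass (log2 fold change -0.25 ± 0.112 SE, edgeR with the block, adjusted p = 0.18). DHCR7, which encodes the reductase of the last step, was at 81.8, 77.6 and 77.9 CPM in controls and 84.5, 83.6 and 92.9 CPM in knockdowns. Its groups did not overlap either, and it did not pass (0.14 ± 0.0682 SE, adjusted p = 0.22). The remaining 7 genes (LSS, CYP51A1, TM7SF2, MSMO1, NSDHL, EBP and SC5D) had log2 fold changes from -0.21 for NSDHL to 0.10 for CYP51A1, none of them past the threshold. The CYP51A1 value rests on 4.30 to 7.38 CPM and is uncertain, because 83.2% of its exon bases are shared with other annotated genes.

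In all, 7 of 32 members had groups that did not overlap (21.9%), against 14.9% of all genes tested (7.52% higher and 7.38% lower). INSIG1, SQLE and HSD17B7 were lower in the knockdown and SCAP, DHCR7, ACLY and FASN higher. For any such gene the exact two-sided permutation p is 0.1, the smallest that 3 against 3 libraries allow.

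Of the 7 genes of fatty acid synthesis 1 fell (14.3%) and 0 rose, against 8.01% and 5.48% of all genes tested. At an unadjusted p under 0.05 there were 2 up and 2 down, against 2126 and 2397 of all 14844 genes. The fall was SCD (ENSG00000099194, chromosome 10, 100347124 to 100364834, plus strand), the desaturase that makes monounsaturated fatty acids and the member with the highest level per length. SCD was at 1107, 932 and 936 CPM in controls and 945, 786 and 850 CPM in knockdowns. Knockdown replicate 1 lay just above control replicates 2 and 3, while each knockdown library was below its own control. The log2 fold change was -0.20 ± 0.0553 (SE; edgeR with the block, adjusted p = 0.042, and 1 without it). SCD was called in 7 of 14 fits with the replicate number, with a largest adjusted p of 0.34.

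FASN (ENSG00000169710, chromosome 17, 82078333 to 82098332, minus strand), fatty acid synthase, was at 921, 964 and 1038 CPM in controls and 1871, 1051 and 1099 CPM in knockdowns. All knockdown libraries were above all control libraries, but knockdown replicate 1 was 2.03 times its control and replicates 2 and 3 were 1.09 and 1.06 times theirs. FASN did not pass with the block (log2 fold change 0.41 ± 0.195 SE, edgeR adjusted p = 0.23). In replicates 2 and 3 alone it was called as higher (0.10, edgeR adjusted p = 0.012). Its fitted knockdown effect was larger in replicate 1 than in replicates 2 and 3, by 0.92 on the log2 scale (edgeR interaction term). Replicate 1 has 1 library per group, so a different effect there and 1 outlying library cannot be told apart.

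ACLY, which makes cytosolic acetyl-CoA from citrate, was at 382, 424 and 448 CPM in controls and 455, 475 and 473 CPM in knockdowns. Its groups did not overlap, and it did not pass (log2 fold change 0.16 ± 0.0586 SE, edgeR with the block, adjusted p = 0.098). ACACA, acetyl-CoA carboxylase, was at 79.6, 143 and 137 CPM in controls and 116, 152 and 156 CPM in knockdowns, with replicate 1 the lowest of either group (0.27 ± 0.0877 SE, adjusted p = 0.077). ELOVL6, an elongase of saturated fatty acids, had a ratio of 1.36 in pair 1 and of 0.999 and 1.02 in pairs 2 and 3 (adjusted p = 0.31). The desaturase genes FADS1 and FADS2, which act on polyunsaturated fatty acids, had log2 fold changes of 0.08 and -0.31 and did not pass. The deposited record of FADS1 lies within that of FADS2 on the other strand, and 5.57% of FADS1 and 4.89% of FADS2 exon bases are shared with other annotated genes. FADS1 exceeded FADS2 on the FPKM scale by 7.41 to 22.0 times over the 6 libraries.

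**Figure D3:**
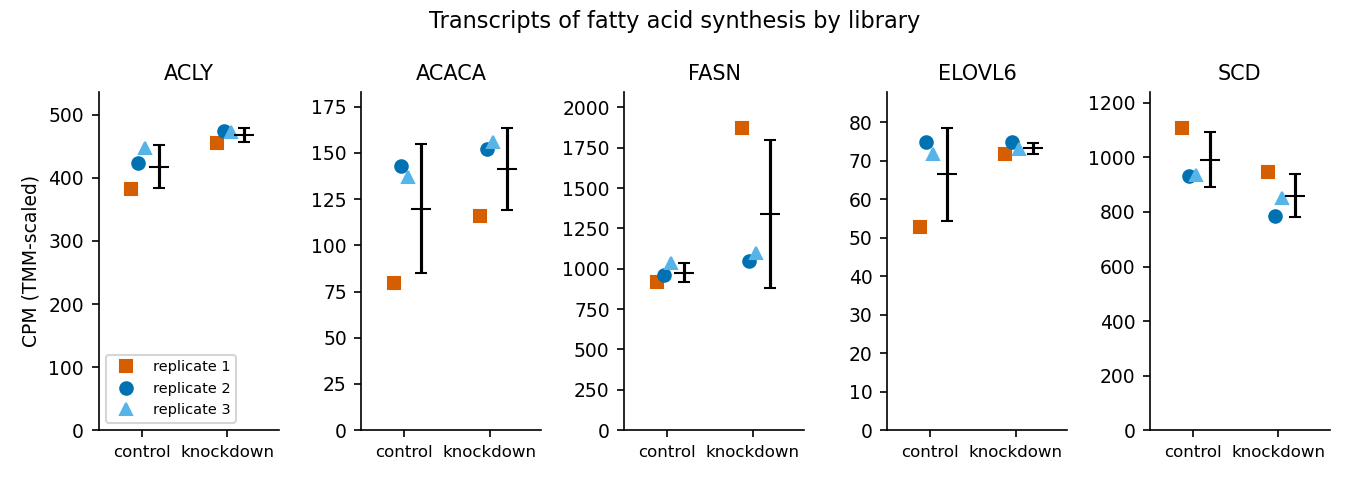
Transcript level in CPM (axis from 0) of ACLY, ACACA, FASN, ELOVL6 and SCD in each library, with the mean and SD of 3 libraries beside the points. The FASN level of 1871 CPM in knockdown replicate 1 stands above the other 5 libraries (921 to 1099 CPM), and SCD is lower in the knockdown within each pair.

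The fitted values of SCD and FASN lay on opposite sides of 0, and only that of SCD passed. The SCD to FASN ratio on the FPKM scale was 2.10, 1.69 and 1.58 in controls and 0.882, 1.31 and 1.35 in knockdowns (replicates 1 to 3), with no overlap. That ratio has no test. STARD4, a sterol carrier that moves cholesterol between membranes, had a log2 fold change of 0.09 and did not pass (adjusted p = 0.34 in edgeR with the block). AACS, which turns the ketone body acetoacetate into a precursor for lipid synthesis, was at 50.2, 40.1 and 41.6 CPM in controls and 58.4, 46.7 and 48.9 CPM in knockdowns. The ratio within pairs was alike in all 3 (log2 0.22, 0.22 and 0.23), and it did not pass in that fit (0.22 ± 0.0693 SE, adjusted p = 0.068).

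With replicate 1 against replicates 2 and 3 as a batch term, edgeR called 5 members as higher and 5 as lower. Of all genes 21.0% were called in that fit (9.29% higher and 11.7% lower). The 5 higher were PMVK, SCAP, ACLY, ACACA and AACS (edgeR adjusted p 0.027 to 0.037), and the 5 lower were the genes that fell with the block. Without replicate 1 more members were called. In replicates 2 and 3 alone edgeR called 8 members as higher and 6 as lower, 43.8% of 32, where 25.3% of 14836 genes were called (11.7% higher and 13.7% lower). The 6 lower were the 5 genes that fell and NSDHL, a sterol dehydrogenase gene. The 8 higher were PMVK, DHCR7, SCAP, STARD4, ACLY, ACACA, FASN and AACS. Their changes were small, from 0.10 for FASN to 0.28 for PMVK on the log2 scale. Their p-values rest on the small spread between replicates 2 and 3. Over the 14 fits that kept the replicate number or left replicate 1 out, PMVK, SCAP and AACS were each called in 5. ACACA was called in 4, ACLY and FASN in 3 each, and DHCR7 and STARD4 in 2 each.

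For 8 of 32 members (25.0%) the knockdown effect in replicate 1 differed from that in replicates 2 and 3 by edgeR's interaction test, against 13.0% of all genes tested. For 7 of the 8 (21.9% of the members) the effect in replicate 1 was the more positive, against 5.06% of all genes tested. These were FASN, PMVK, SCAP (0.48, adjusted p = 7.4e-05), ELOVL6 (0.43, adjusted p = 0.0023), ACACA (0.40, adjusted p = 0.00030), HMGCS1 (0.36, adjusted p = 0.00076) and FDFT1 (0.34, adjusted p = 6.8e-05). PMVK differed by 0.81 (edgeR, adjusted p = 0.0067). SREBF2 went the other way (-0.18). Replicate 1 has 1 library per group, so the error in the interaction test comes from replicates 2 and 3 alone. A different knockdown effect in replicate 1 and an outlying library there cannot be told apart. DESeq2 with the same terms called 4 of the 8, FDFT1, SCAP, ACACA and FASN. It gave no adjusted p for PMVK, whose difference there was 0.81. Upper-quartile scaling called ACLY in place of SREBF2. For the 5 genes that fell this difference was between -0.13 and 0.05 and did not pass in any of them (edgeR adjusted p 0.41 to 0.98). The fit with the block, which picked these 5, takes its error from disagreement between pairs. It therefore favours genes with alike ratios in all pairs, and their small differences here are no separate evidence.

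The members also differed in level between replicate 1 and replicates 2 and 3, as did 61.8% of all genes tested. With group in the model 23 members were called (71.9%): 12 members were higher in replicate 1 and 11 lower (37.5% and 34.4%), against 31.6% and 30.2% of all genes tested (edgeR). The largest differences upward were those of the sterol reductase gene TM7SF2 (1.47 on the log2 scale, adjusted p = 1.5e-05) and the sterol methyl oxidase gene MSMO1 (1.11, adjusted p = 7.9e-09). Then came SREBF1 (0.95, adjusted p = 2.1e-08) and SREBF2 (0.70, adjusted p = 2.5e-07). The largest downward were those of ACAT2 (-0.92, adjusted p = 3.7e-07) and PMVK (-0.89, adjusted p = 0.00050). ACAT2 and HMGCS1, next to each other in the route, lay on opposite sides, with ACAT2 lower and HMGCS1 (0.37, edgeR adjusted p = 0.00092) higher in replicate 1. The ACAT2 value is uncertain, because 52.3% of its exon bases are shared with genes on the opposite strand. What sets replicate 1 apart is not given by the labels.

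**Figure D4:**
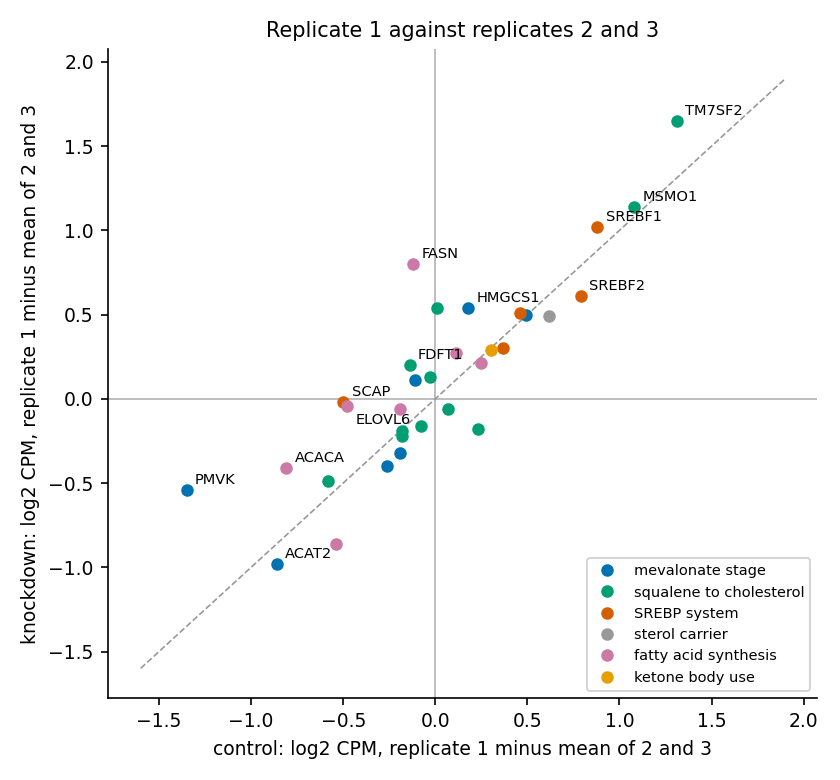
Difference in log2 CPM between replicate 1 and the mean of replicates 2 and 3 for each of the 32 genes, in controls (horizontal axis) and in knockdowns (vertical axis), coloured by role, with a dashed line where both are equal. TM7SF2 and MSMO1 lie high in both groups and ACAT2 low in both, while FASN, SCAP, ACACA and PMVK lie above the line.

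With the replicate block and other settings, the counts of members called varied. RLE scaling gave 0 rising and 5 falling (5.19% and 8.55% of all genes), upper-quartile scaling 1 and 3 (8.07% and 6.64%), and no low-count filter 3 and 5 (3.48% and 5.51%). For genes averaging 5 CPM or more the counts were 1 and 4 (7.15% and 9.69%). On log2(FPKM + 1) they were 0 and 2 (1.43% and 2.44%), and on log2(FPKM + 0.1) they were 0 and 3 (1.66% and 2.96%). Without pair 1 edgeR with the block called 8 and 8 (12.7% and 14.9%), without pair 2 it called 0 and 1 (2.01% and 4.09%), and without pair 3 it called 3 and 2 (4.27% and 7.29%).

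Per unit of length, the control levels covered 2 orders of magnitude. SCD was highest (184 ± 15.9 FPKM), followed by FASN (104 ± 7.35), ACLY (80.0 ± 7.31), SQLE (51.6 ± 4.38), FDFT1 (50.2 ± 3.77) and SREBF2 (38.9 ± 12.7; SD, n = 3 throughout). SQLE and FDFT1 differed by less than their spread, as did FDFT1 and SREBF2. At the low end were FADS2 (1.64 ± 0.424), TM7SF2 (1.55 ± 0.868) and CYP51A1 (1.52 ± 0.287), which differed by less than their spread. In bulk RNA fewer cells with a transcript and less of it per cell cannot be told apart.

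Other genes of lipid metabolism were read from 6 lists of 105 genes that hold none of the 32. Of 18 genes of cholesterol uptake, storage, trafficking and efflux 2 rose and 4 fell, a share of 33.3% called. Over all genes tested in that fit 13.5% were called, 5.48% rose and 8.01% fell, and these shares are the background for each list below. SCARB1, the receptor for high-density lipoprotein, was at 29.7, 57.6 and 57.5 CPM in controls and 76.8, 105 and 98.8 CPM in knockdowns, with no overlap (log2 fold change 0.99 ± 0.108 SE, edgeR with the block, adjusted p = 0.0013). The cholesterol exporter genes ABCG1 (-0.98, adjusted p = 0.018) and ABCA1 (-0.79, adjusted p = 0.020) fell in edgeR with the block. ABCG1 was low, at 20.1, 4.39 and 3.06 CPM in controls and 12.6, 1.45 and 1.51 CPM in knockdowns. Its groups overlapped, and replicate 1 was by far the highest of either group. ABCA1 was at 169, 129 and 136 CPM in controls and 137, 61.1 and 68.4 CPM in knockdowns, so that knockdown replicate 1 lay within the controls. Named after their values were seen, the retinoid X receptor genes RXRA (-0.34) and RXRB (-0.36) also fell, and MYLIP (0.47), a ubiquitin ligase for lipoprotein receptors, was the other rise. NCEH1, a cholesteryl ester hydrolase gene and the highest of those that did not pass, was at -0.23.

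Of 9 genes of SREBP processing and sterol sensing in the ER 0 rose and 1 fell (11.1% called, against 13.5% of all genes tested). The protease gene MBTPS1, which makes the opening cut in SREBP precursors, was at -0.01 on the log2 scale. It did not pass (edgeR with the block, adjusted p = 0.90). Of 12 isoprenoid branch genes edgeR with the block called 0, with 0 at an unadjusted p under 0.05, and 0 were called in replicates 2 and 3 alone. The highest of them, RABGGTB, was at -0.02.

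Of 23 tested genes of fatty acid activation, elongation and supply 2 rose and 0 fell (8.70% called, against 13.5% of all genes tested). At an unadjusted p under 0.05 in edgeR with the block there were 7 up and 2 down, against 2126 and 2397 of all 14844 genes. ELOVL1, an elongase of very long chains, was at 144, 123 and 119 CPM in controls and 245, 188 and 169 CPM in knockdowns (0.63 ± 0.0679 SE, edgeR with the block, adjusted p = 0.0012). FADS3 followed at 0.27 (adjusted p = 0.040), and ACSL4, an acyl-CoA synthetase gene, did not pass (-0.04). Of 23 tested genes of fatty acid oxidation 5 rose and 2 fell, 30.4% called, against 13.5% of all genes tested. The 2 that fell in edgeR with the block were the nuclear receptor genes PPARD (-0.96, adjusted p = 0.0042) and PPARA (-0.78, adjusted p = 0.0044), which regulate oxidation genes. PPARD was at 84.5, 38.4 and 39.0 CPM in controls and 32.2, 24.2 and 22.8 CPM in knockdowns. Its log2 fold change was -0.72 in replicates 2 and 3 alone. PPARA was at 63.4, 17.9 and 17.3 CPM in controls and 31.4, 11.4 and 11.6 CPM in knockdowns, so its groups overlapped. The rises were the mitochondrial carnitine carrier gene SLC25A20 (0.74, adjusted p = 0.036) and, named after their values were seen, ETFB (0.49), DECR1 (0.35), ECI1 (0.30) and ECHS1 (0.28), which encode mitochondrial proteins of the pathway. HADHA, a subunit of the trifunctional protein, did not pass (0.13). Of 16 tested glycerolipid synthesis genes 1 fell (6.25%, against 8.01% of all genes tested), the phosphatidate phosphatase gene LPIN3 (-0.60, adjusted p = 0.0093), and AGPAT2 did not pass (-0.05). Without the block edgeR called 0 genes in each of the 6 lists.

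The mean log2 CPM of the 5 genes that fell was compared across the 6 libraries with each of 12118 other protein-coding genes. Among the 5 with the most similar pattern were FRMD8 (r = 0.996), C12orf57 (0.995), CAV2 (0.995) and ERP29 (0.993). The 6 points share the separation of replicate 1 and of the groups, so these values are a description. FRMD8 was at 60.4, 46.4 and 48.4 CPM in controls and 34.8, 29.7 and 30.3 CPM in knockdowns.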

How the data were processed

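RNA-seq was measured in 6 libraries of Mum-2b cells, 3 per group. The deposited table holds raw counts per gene, and a second deposited table holds FPKM, which the authors scaled by gene length and library depth, per the file headers and values. Per the submitters' processing notes, hg38 was the genome build. Aligner, counter and strand setting are not given in the sources used here. Each FPKM equalled the count divided by gene length and by 1 constant per library, 0.9816 to 1.0735 times its total.

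Counts were fitted with edgeR 4.0.16 in R 4.3.3 (filterByExpr, TMM factors of 0.989 to 1.034, robust quasi-likelihood tests). CPM uses TMM-scaled library sizes. Each edgeR SE is the absolute log2 fold change divided by the square root of the F statistic of its quasi-likelihood test. SDs and SEs include the spread between libraries, while the floor of 3 counts (0.182 to 0.212 CPM) covers counting error only. The fit without a replicate term is the primary design and the replicate block an alternative. Deviations from the group means were correlated across genes between libraries of 1 number (0.864, 0.696 and 0.685 for numbers 1 to 3). As deviations were taken from each group's own mean, a replicate 1 that stands apart alone raises the values of numbers 2 and 3. The pairing comes from the data and rests on number 1, since the difference of replicates 2 and 3 was uncorrelated between groups (-0.0041). Numbers 2 and 3 thus showed no pairing of their own. Residual degrees of freedom were 4 without the block and 2 with it. Alternatives used DESeq2 1.42.0, limma 3.58.1, other scalings and filters, log2 FPKM, and left-out libraries or pairs.

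Members and lists were chosen with earlier results of these data known. Members were given in full if called, if their groups did not overlap, or if they belong to the SREBP system; PMVK, HMGCS1, FDFT1, ACACA, ELOVL6 and AACS were added after their values were seen. From each other list the rule took up to 3 called genes of largest change at 1 CPM or more and the highest uncalled one. The likeness rule took 5 genes. Some genes these rules took are not reported here. Promoters came from RefSeq and exon overlaps from GENCODE release 29, whose coordinates matched the table for all 32 members. Of the 4 promoters the rule took, that of IDI1 was left out for its distance from the gene record.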

Additional observations from a re-analysis of the deposited data

How the results depend on the processing

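Of 832 log2 fold changes of members over 26 alternatives, 691 kept direction and call, 86 became called in the same direction, 55 changed sign in 16 members, and 0 lost a call, since the fit without the replicate block called none. Members that fell numbered 5 with the replicate block in edgeR, in limma-voom, with RLE scaling and with no filter, 5 with replicate 1 as a batch term, 6 in replicates 2 and 3 alone, 4 with the block and a 5 CPM minimum, 3 in DESeq2, with upper-quartile scaling and on log2(FPKM + 0.1) with the block, 2 on log2(FPKM + 1), and 1 in DESeq2 without a block. With the block and without 1 pair they numbered 1 (without pair 2) to 8 (without pair 1), and 2 without pair 3. Leaving out any library without the block gave 0. Members that rose numbered 0 with the block in edgeR, 5 with replicate 1 as a batch term, 8 in replicates 2 and 3 alone, 3 with no filter and the block, 1 with upper-quartile scaling or at least 5 CPM and the block, and 0 (without pair 2) to 8 (without pair 1) with a pair left out, with 3 without pair 3. The members' median of -0.02 was -0.08 in replicates 2 and 3 alone, 0.02 with upper-quartile scaling with or without the block (median of all genes 0.0477 with it), -0.08 (without pair 1) to -0.0023 (without pair 2) with the block and a pair left out, and -0.07 (without knockdown replicate 1) to 0.03 (without knockdown replicate 2) without the block and a library left out. Interaction calls went from 8 to 4 in DESeq2, which gave no adjusted p for PMVK (chosen after seeing the data). Calls in the other lists, also run after seeing the data, went from 0 without the block to 1, 6, 0, 2, 7 and 1 with it, and to 2, 8, 0, 5, 8 and 5 in replicates 2 and 3 alone, for SREBP processing, cholesterol transport, isoprenoid, fatty acid supply, oxidation and glycerolipid genes. The causes were not tested.

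Some signs turned. EBP (0.0009 in the fit without the block) was at -0.0002 with the batch term, -0.0087 and -0.0098 in DESeq2 without and with the block, -0.00039 in limma-voom, -0.0086 and -0.0096 with RLE, -0.01 with no filter, and -0.02 on both FPKM scales. In replicates 2 and 3 alone FDPS was at 0.02, FDFT1 at -0.09 and CYP51A1 at -0.11. With upper-quartile scaling FDPS and LSS were at 0.02 and MVK at 0.0047 (0.0016 with the block). Over left-out libraries or pairs the log2 fold changes ran from -0.34 to 0.15 for ACAT2, -0.02 to 0.27 for HMGCS1, -0.12 to 0.02 for MVK, -0.33 to 0.04 for MVD, -0.10 to 0.10 for FDPS, -0.09 to 0.11 for FDFT1, -0.08 to 0.02 for LSS, -0.10 to 0.28 for CYP51A1, -0.86 to 0.49 for TM7SF2, -0.56 to 0.38 for MSMO1, -0.06 to 0.07 for EBP, -0.27 to 0.51 for SREBF1, -0.42 to 0.14 for SREBF2, -0.10 to 0.32 for STARD4, -0.005 to 0.23 for ELOVL6 and -0.02 to 0.13 for FADS1, with FDFT1 at -0.05 without knockdown replicate 1 and called at -0.09 with the block without pair 1, and EBP at -0.03 with the block without pair 2.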
